A study of Mus musculus with 2 samples.

Results

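The genes described here encode high mobility group (HMG) proteins and histone variants: Hmgb1, Hmgb2, Hmgb3, Hmgn1, Hmgn2, Hmga1, H2afz and H2afx. Members were all probe sets of the array that GEO's platform annotation ties to these 8 genes. There were 7, out of 12422 probe sets besides the controls, and each measured a different gene. Hmga1 was not analysed here. The probe sets for Hmgb2, Hmgb3, Hmgn1, H2afz (now H2az1) and H2afx (now H2ax) name 1 gene each. That of Hmgb1 also names a predicted gene, and that of Hmgn2 also names 3 predicted genes, so their signals cannot be given to Hmgb1 or Hmgn2 alone.

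RNA was measured in 2 samples of mouse bone marrow cells sorted as Lin-c-kit+Sca1+ (LSK), a fraction rich in haematopoietic stem and multipotent progenitor cells. Both samples form 1 group, with no treatment, genotype, age or second condition in the labels, and are called sample 1 and sample 2. The labels do not say whether they came from separate animals or sorts, so the spread between them may be technical. With 1 group of 2 samples no gene can be tested, and each difference below describes these 2 arrays. In such samples, fewer cells of a type and less RNA per cell cannot be told apart.

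HMG proteins are abundant chromatin proteins that are not histones. HMGB proteins bend DNA through their HMG boxes, HMGN proteins bind inside the nucleosome and oppose compaction by linker histones, and HMGA proteins hold AT-rich DNA with short AT-hooks. Histone variants replace the canonical histones of a nucleosome: H2A.Z, the product of H2afz, sits at promoters next to the start site, and H2A.X is phosphorylated at DNA breaks. In mouse bone marrow, Hmgb3 is known for its part in the balance between stem cell self-renewal and differentiation.

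The regions before the start sites of 4 members and of H2afv are shown for genes on both sides of the difference between the samples: Hmgn1 and H2afz, higher in sample 1, and Hmgb2, Hmgb3 and H2afv, higher in sample 2 (Hmgb3 in sample 1 if scaled on the hybridisation controls). With that scaling Hmgb2 differed by only -0.03 on the log2 scale. H2afv (now H2az2) encodes another form of H2A.Z and is no member. The sequences are from RefSeq, build GRCm38.p6, and cover the 250 bases before the start site, read 5′ to 3′ on the strand of the gene. Capitals mark matches on either strand to the CCAAT box (CCAAT), the GC box (GGGCGG), the cell cycle homology region or CHR (TTTGAA) and the TATA box (TATAAA).
Hmgn1, chr16:96127726-96127975, minus strand: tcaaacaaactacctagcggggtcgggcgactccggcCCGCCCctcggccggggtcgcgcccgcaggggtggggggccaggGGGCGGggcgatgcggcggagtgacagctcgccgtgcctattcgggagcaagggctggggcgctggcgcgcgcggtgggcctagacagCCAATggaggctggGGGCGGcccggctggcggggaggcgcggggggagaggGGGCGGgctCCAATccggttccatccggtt
H2afz, chr3:137864237-137864486, plus strand: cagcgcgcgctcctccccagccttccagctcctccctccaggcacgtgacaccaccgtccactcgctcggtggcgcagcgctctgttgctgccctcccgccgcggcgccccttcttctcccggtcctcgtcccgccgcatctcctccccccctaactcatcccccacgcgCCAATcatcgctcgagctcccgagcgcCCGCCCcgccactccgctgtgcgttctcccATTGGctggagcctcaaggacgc
Hmgb2, chr8:57511593-57511842, plus strand: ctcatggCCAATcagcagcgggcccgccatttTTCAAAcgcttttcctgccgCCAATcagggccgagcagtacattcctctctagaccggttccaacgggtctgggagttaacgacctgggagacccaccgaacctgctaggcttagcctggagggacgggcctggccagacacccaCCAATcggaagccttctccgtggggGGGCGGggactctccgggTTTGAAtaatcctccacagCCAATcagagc
Hmgb3, chrX:71555667-71555916, plus strand: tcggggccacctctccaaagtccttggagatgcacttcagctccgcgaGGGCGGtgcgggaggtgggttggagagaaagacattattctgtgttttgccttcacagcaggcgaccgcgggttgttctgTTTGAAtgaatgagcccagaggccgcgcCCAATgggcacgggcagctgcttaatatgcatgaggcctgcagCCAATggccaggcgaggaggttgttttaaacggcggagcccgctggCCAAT
H2afv, chr11:6444444-6444693, minus strand: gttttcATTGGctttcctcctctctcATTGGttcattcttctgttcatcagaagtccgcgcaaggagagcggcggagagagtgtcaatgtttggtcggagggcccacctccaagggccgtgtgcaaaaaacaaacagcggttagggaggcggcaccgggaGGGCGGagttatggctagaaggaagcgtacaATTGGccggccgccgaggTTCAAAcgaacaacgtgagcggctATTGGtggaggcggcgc

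A promoter was found for 7 of the 8 member genes. Of these 7, 5 had a CCAAT box before at least 1 start site, against 33.8% of all 32851 promoters of the same length. The 5 were Hmgb1, Hmgb2, Hmgb3, Hmgn1 and H2afz. All 7 had a GC box before at least 1 start site, against 32.7% of all promoters. Each of all promoters counts 1 start site, whereas Hmgb1 and Hmga1 have 2 each. Hmgb1 had its GC boxes before only 1 of the 2, and its CCAAT boxes before the other. The CHR, an element of genes active in late cell cycle, was found in 2 of 7, Hmgb2 and Hmgb3, against 16.0%. H2afv had 1 as well. Hmgb1 and Hmgn2, whose probe sets were also higher in sample 2 and whose regions are not shown above, had none. None of the 7 had a TATA box, which 12.4% of all promoters held. H2afz and Hmgn1 had 2 CCAAT boxes each, Hmgb3 had 3, and Hmgb2 and H2afv had 4 each. These windows were also rich in G and C, at 58.8% in Hmgb3, 60.4% in Hmgb2, 71.2% in H2afz and 76.0% in Hmgn1, against a median of 52.4% over all promoters. A match describes letters, not a bound site.

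All 7 member probe sets gave signals above the control level in both samples. A sample's control level is taken from 15 probe sets for bacterial genes with no mouse counterpart, as the 90th percentile of their signals: 12.1 in sample 1 and 8.91 in sample 2. It is a permissive level, passed by 49.3% of all probe sets in both samples. Of all 8251 genes with a probe set that names 1 gene, 57.0% passed, the share to set beside each list count below. Signals are quantile-normalized and have no unit, and those under 20 are set to 20 before any difference is taken. Signals of different probe sets are not ranked against each other, since each set of probes binds with its own strength.

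Of the 7 probe sets, 2 were 2-fold or more higher in sample 1 and 3 were 2-fold or more higher in sample 2. Across all 6118 probe sets that passed this level, these shares were 10.5% and 9.40%. These 6118 include probe sets under the floor of 20 in both samples, whose difference is set to 0. They cannot reach 2-fold, which lowers both shares, whereas all 7 members were above 20 in both samples. Genes of this kind also lower the shares of all genes set beside the lists below. Hmgb2 was close to the 2-fold limit: its difference was -0.95 with the scaling as deposited, -0.54 with an offset of 32 and 0 with a floor of 50, and each of these left 2 members 2-fold higher in sample 2. With the arrays scaled on their hybridisation controls instead, 2 were 2-fold higher in sample 1 and 0 in sample 2, and the median of all probe sets moved to 0.78. The median difference of the 7, as log2 of sample 1 minus log2 of sample 2, was -0.66. Over all 6118, those set to 0 by the floor included, it was 0. That of the 7 was 0.33 with the control scaling and 0 with a floor of 50. The members did not share a direction. Hmgn1 and H2afz were higher in sample 1, and the other 5 were higher in sample 2, of which Hmgb1 and Hmgb3 were higher in sample 1 (0.63 and 0.33 on the log2 scale) with the control scaling.

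**Figure D1:**
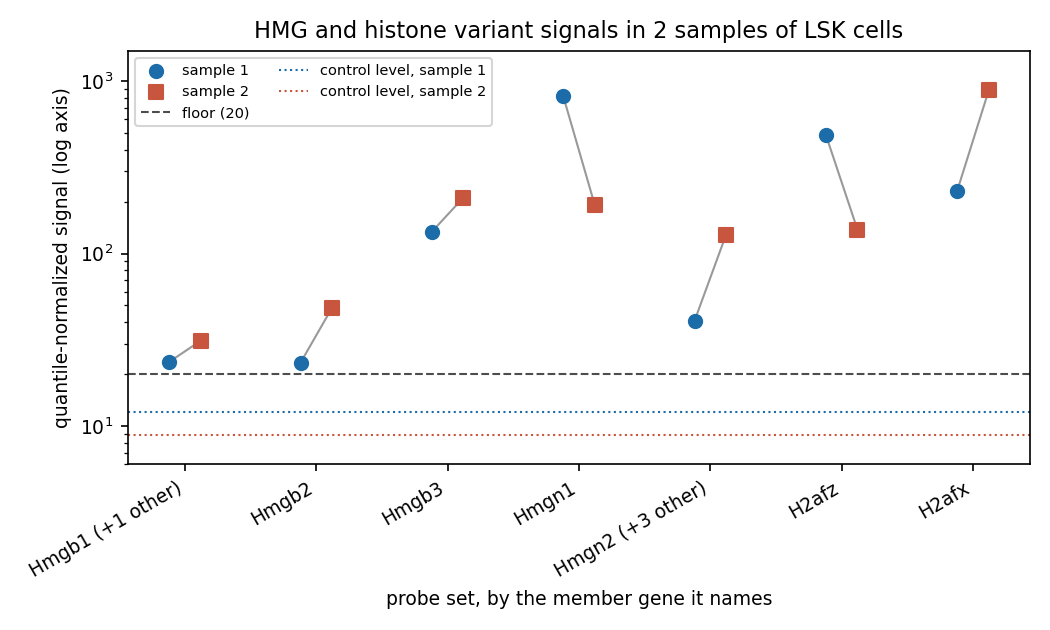
Quantile-normalized signal (log axis) of the 7 member probe sets in sample 1 (circles) and sample 2 (squares), with the floor of 20 (dashed) and each sample's control level (dotted). Hmgn1 and H2afz slope down from sample 1 to sample 2 and the other 5 slope up (Hmgb1 and Hmgb3 would slope down if scaled on the hybridisation controls), with Hmgb1 and Hmgb2 close to the floor.

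Hmgb3 gave 134 in sample 1 and 211 in sample 2, a mean log2 signal of 7.39 ± 0.47 (SD, n = 2). This difference of 1.58-fold was ordinary for these arrays: of the 490 probe sets within 0.5 log2 units of its mean, 49.0% differed at least as much. Hmgb2, whose product acts with Hmgb1 in DNA bending and is a marker of dividing cells, had 23.2 in sample 1 and 48.4 in sample 2 (5.07 ± 0.75, SD, n = 2). It was 2.08-fold apart, and 18.0% of 2273 probe sets of like signal were as far apart or farther. Its value in sample 1 lay next to the floor, and with a floor of 50 the difference was 0. With the control scaling it was -0.03 on the log2 scale. The Hmgb2 probe set carries the suffix _r_at, given by the array's maker where some rules of probe selection were relaxed. The probe sets first given below for Rag1, Ruvbl1, H3c14 and H2bc22 carry it too, as does the other H2afy probe set.

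The probe set that names Hmgb1 and a predicted gene gave 23.5 in sample 1 and 31.2 in sample 2 (4.76 ± 0.29, SD, n = 2). Both values are near the floor, and 39.9% of 3061 probe sets of like signal were as far apart or farther. Those 3061 include the probe sets that passed the control level with both values under 20. The floor sets their difference to 0, so this share is partly fixed by the floor. Hmgb1 protein is known as one of the most abundant nuclear proteins after histones, but this probe set's low signal is no measure of its level against other genes. Of the genes of HMGB1 partners and receptors, 6 of 9 measured were above the control level, against 57.0% of all 8251 genes. Their median difference was 0.01 and 0 of the 6 were 2-fold apart, where 10.9% of all 4707 genes that passed were 2-fold higher in sample 1 and 9.48% in sample 2. Cd24a, a surface partner of HMGB1, had 185 in sample 1 and 181 in sample 2. The nuclear export gene Xpo1 had 74.7 and 70.4, and Rag1, the recombinase subunit whose cutting HMGB1 aids, had 44.2 and 48.4, in samples 1 and 2. The other Rag1 probe set, at 0.75 and 1.05, was not above the control level. The receptor gene Ager, at 14.2 and 19.0, and Cxcl12, at 19.6 and 12.5, were under the floor in both samples. Their differences were therefore 0 by the floor. Cxcr4 was next to the floor at 21.1 and 16.5, so the 0 of 6 is partly set by the floor.

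The HMGN genes lay in opposite directions. Hmgn1, whose product binds nucleosomes and loosens chromatin, gave 819 in sample 1 and 192 in sample 2 (8.63 ± 1.48, SD, n = 2). The difference of 2.10 on the log2 scale, or 4.28-fold, was the largest of the 7. Of the 135 probe sets within 0.5 log2 units of its mean, 8.89% differed as much or more, and their replicate SD was 0.83. The probe set that names Hmgn2 and 3 predicted genes had 40.7 in sample 1 and 129 in sample 2 (6.18 ± 1.17, SD, n = 2). It was 3.16-fold higher in sample 2. Of 1263 probe sets of like signal, whose SD was 0.70, 9.42% were as far apart or farther. With the control scaling the log2 differences were 3.07 for Hmgn1 and -0.66 for Hmgn2, the second of these under 2-fold. The related Hmgn5 had 56.8 in sample 1 and 48.7 in sample 2. Hmga2, an HMGA gene of fetal stem cells, was near the floor at 19.3 and 24.0, and the testis gene Hmgb4 was not above the control level, at 1.6 and 3.25.

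The histone variant members also lay in opposite directions. H2afz had 487 in sample 1 and 138 in sample 2 (8.02 ± 1.29, SD, n = 2), 3.54-fold higher in sample 1. H2afx had 232 in sample 1 and 884 in sample 2 (8.82 ± 1.37, SD, n = 2), 3.82-fold higher in sample 2. Of probe sets of like signal, 8.61% of 267 differed at least as much as H2afz and 12.9% of 116 as much as H2afx. The SDs of those probe sets were 0.78 and 0.83. With the control scaling the log2 differences were 2.81 for H2afz and -0.95 for H2afx, the second of these under 2-fold. Both members were thus farther apart than most probe sets of their signal, but not outside the range these arrays gave.

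**Figure D2:**
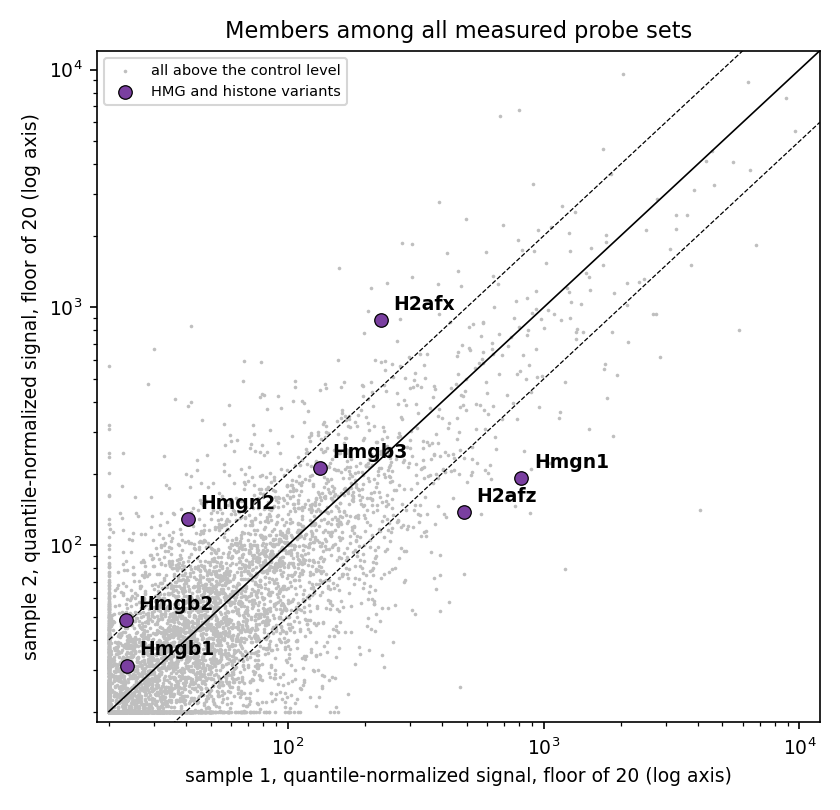
Signal in sample 1 (x axis) against sample 2 (y axis), both log axes with a floor of 20, for the 6118 probe sets that passed the control level (grey) and the 7 members (purple); the solid line marks equal signals and the dashed lines 2-fold. Hmgn1 and H2afz lie below the lower dashed line, H2afx and Hmgn2 above the upper one and Hmgb2 just above it.

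The other H2A.Z gene did not follow H2afz. H2afv had 268 in sample 1 and 724 in sample 2 (8.78 ± 1.01, SD, n = 2), 2.70-fold higher in sample 2. Each gene has 1 probe set here, so neither direction has a second probe set beside it. Of the 12 other variant and linker histone genes listed, 6 were measured and 5 passed the control level, and their median difference was -1.06. Of the 5, 3 were 2-fold or more higher in sample 2 and 0 in sample 1. Over all 4707 genes that passed, these shares were 9.48% and 10.9%. With the control scaling the list median was -0.069. H2afy, the gene of macroH2A, had 219 in sample 1 and 602 in sample 2, and 59.5 and 292 by its other probe set. Cenpa, the H3 variant of centromeres, had 83.1 in sample 1 and 173 in sample 2.

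Replication-dependent histone genes, whose mRNAs mostly end in a stem-loop and not in a poly(A) tail, included 14 with a probe set that names 1 gene, and 5 of the 14 passed the control level. Over all 8251 genes 57.0% passed. The median difference of the 5 was -0.06, and 0 were 2-fold apart. Of all genes that passed, 10.9% were 2-fold or more higher in sample 1 and 9.48% in sample 2. H1f1 (20.3 and 21.1) and H2ac21 (12.7 and 24.9), like H1f2, lay near the floor, so the 0 is partly set by the floor. H3c14 had 149 in sample 1 and 230 in sample 2, H2bc22 had 73.0 and 55.5, and the linker histone gene H1f2 had 31.3 and 16.0. Only 1 of the 3 H2bc22 probe sets passed the control level. Of 7 probe sets that name several histone genes, 4 were above the control level. One that names 14 genes, most of them H2A genes, had 2051 in sample 1 and 9585 in sample 2. Another, for 2 H2A genes and an H2A pseudogene, had 122 and 275. A pair of probe sets for the same 12 H3 genes disagreed: one had 29.1 in sample 1 and 119 in sample 2, the other 101 and 84.0. These probe sets were chosen after their values were seen.

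**Figure D3:**
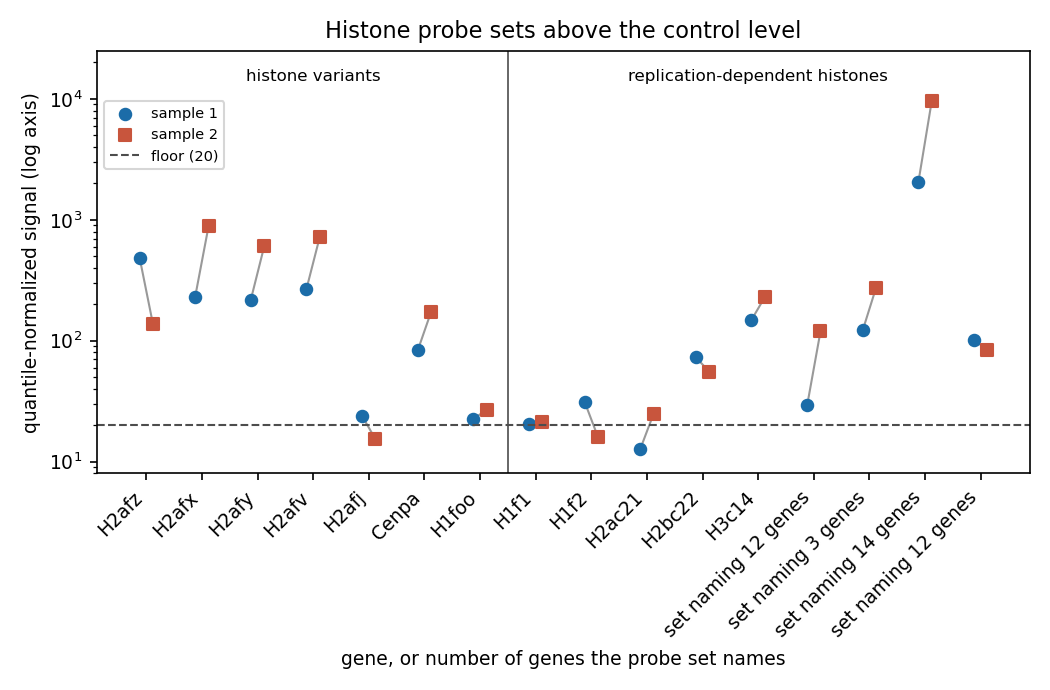
Quantile-normalized signal (log axis) in sample 1 (circles) and sample 2 (squares) of histone probe sets above the control level, variants left of the vertical line and replication-dependent genes right of it; a label with a number is a probe set that names that many genes. Among the variants H2afx, H2afy, H2afv and Cenpa are higher in sample 2 and H2afz is higher in sample 1.

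Genes of the complexes that put H2A.Z into nucleosomes differed less than H2afz itself. Of 18 listed, 11 were measured and 8 passed the control level, and their median difference was 0.14. Of these, 1 was 2-fold higher in sample 1 (Morf4l2, 98.6 and 42.7) and 0 in sample 2, against 10.9% and 9.48% of all genes. The other Morf4l2 probe set had 16.7 and 18.1, both under the floor. The ATPase genes Ruvbl1 and Ruvbl2 had 86.2 in sample 1 and 93.1 in sample 2, and 116 in sample 1 and 84.2 in sample 2. A second Ruvbl1 probe set, without the suffix _r_at, had 109 and 37.1. It was more than 2-fold higher in sample 1 but is not in the count of 1, which took the probe set with the higher mean. The acetyltransferase subunit gene Epc1 had 126 in sample 1 and 178 in sample 2, and Anp32e, the chaperone that takes H2A.Z off, had 43.9 and 72.2. The other Anp32e probe set, at 18.4 and 6.35, was not above the control level.

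Among histone chaperones 18 of 22 measured genes passed the control level, and their median difference was 0.10. Of the 18, 3 were 2-fold or more higher in sample 1 and 0 in sample 2, against 10.9% and 9.48% of all genes that passed. Set, an inhibitor of histone acetylation, had 1207 in sample 1 and 484 in sample 2, with 143 and 126 by another probe set. Npm1, the nucleolar chaperone nucleophosmin, had 617 in sample 1 and 217 in sample 2, and Anp32b had 374 and 242. The third past 2-fold was Rbbp7, a histone-binding subunit of many chromatin complexes, at 442 and 159. Set also belongs to the SET complex, a cytoplasmic assembly that holds Hmgb2. All 5 measured genes of that list passed the control level, and their median difference was 0.55. Of the 5, 2 were 2-fold or more higher in sample 1 and 1 in sample 2, against the same 10.9% and 9.48%. Of its other genes, Apex1 had 141 in sample 1 and 96.2 in sample 2, Anp32a 155 and 146, and Nme1 48.3 and 17.7. Hmgb2 was the only one of the 5 higher in sample 2. Its difference was -0.03 with the control scaling and 0 with a floor of 50.

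Genes of the signalling that marks and reads H2A.X at DNA breaks had a median difference of -0.01. Of 17 measured, 12 were above the control level, H2afx among them, against 57.0% of all 8251 genes. Of the 12, 1 was 2-fold or more higher in sample 1 (Chek2) and 1 in sample 2 (H2afx itself). Over all 4707 genes that passed, these shares were 10.9% and 9.48%. The tyrosine kinase gene Baz1b, whose product acts on H2A.X, had 226 in sample 1 and 198 in sample 2. The checkpoint kinase gene Chek1 had 148 and 123, and Chek2 had 127 and 47.1. The kinase gene Atm was not above the control level, at 4.4 in sample 1 and 11.6 in sample 2.

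Of 27 measured genes of S phase and mitosis 24 passed the control level, and their median difference was 0.37. Of the 24, 6 were 2-fold or more higher in sample 1 and 2 in sample 2. Over all 4707 genes that passed, these shares were 10.9% and 9.48%. Pcna had 403 in sample 1 and 208 in sample 2, Stmn1 380 and 293, and Cdc20 315 and 148. The 6 were Cdc20, Mcm3, Mcm5, Mcm7, Tk1 and Top2a. Those 2-fold higher in sample 2 were Cks2 (78.0 and 419) and Aurkb (31.3 and 112). H2afz and Hmgb2, known to be high in dividing cells, stood on different sides, with H2afz higher in sample 1 and Hmgb2 higher in sample 2. The side of Hmgb2 is unsure, as its difference was -0.03 with the control scaling and 0 with a floor of 50.

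**Figure D4:**
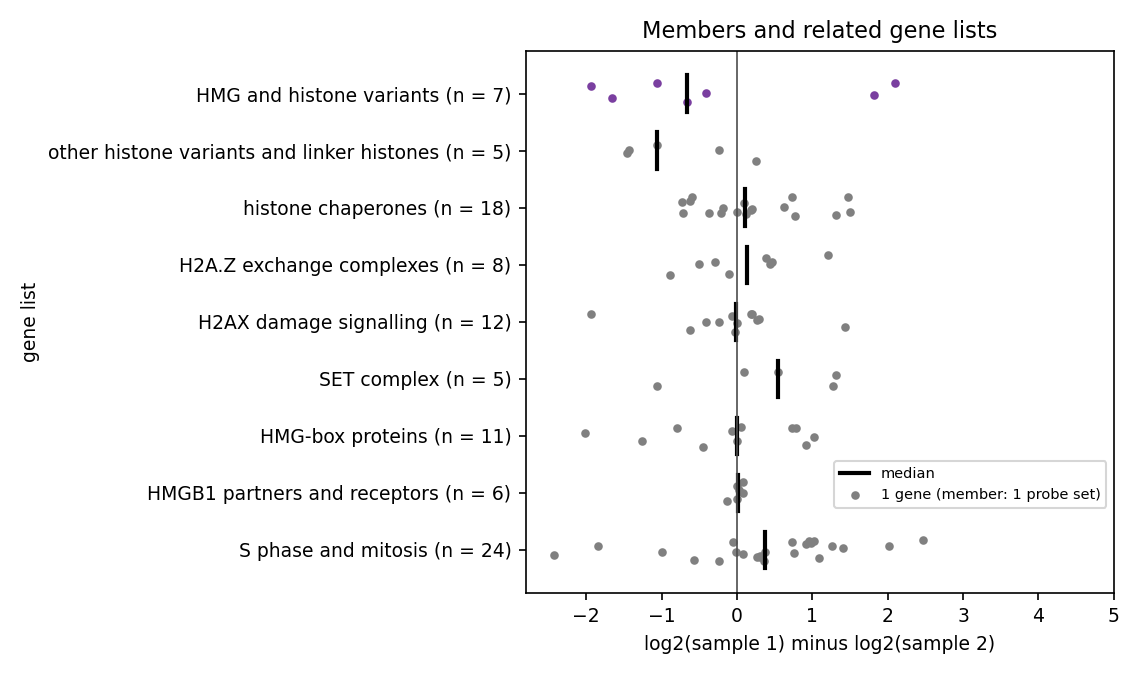
Difference between the samples (log2 of sample 1 minus log2 of sample 2) for the 7 member probe sets (purple) and the genes of 8 related lists above the control level (grey), with each median as a bar. The members spread from -1.93 to 2.10, and the list medians lie between -1.06, for the other histone variants, and 0.55, for the SET complex.

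Other measures moved with the samples, and their part in these differences was not tested. The ratio of the 3′ to the 5′ probe set was 10.2 in sample 1 and 27.1 in sample 2 for beta-actin, and 10.9 and 19.2 for Gapdh, so signal fell more steeply away from the 3′ end in sample 2. All 9 hybridisation control probe sets were higher in sample 2, by a median of 2.28-fold as deposited. Marker signals were summed over all measured genes of a list, and 1 gene carried much of each difference between the sums. Of 10 granulocyte and monocyte markers 8 were above the control level. Their sum was 2609.5 in sample 1 and 1452.9 in sample 2, and without Mpo, the myeloperoxidase gene (1862 and 288), it was 747 and 1165. Their median difference was 0.02.

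Of 6 erythroid markers 4 were above the control level, with a sum of 866 in sample 1 and 1015 in sample 2. Without the globin gene Hba-a1 (30.1 and 670) it was 836 and 344, and the median difference was 0.59. For 6 of 7 B cell markers the signal was also above the control level, with sums of 1105 and 845. Without the immunoglobulin gene Ighm (935 and 667) they were 170 and 178, and the median difference was -0.09. Of 6 T and NK cell markers only Prf1 passed, at 16.8 in sample 1 and 32.3 in sample 2, in a list sum of 43.5 and 56.7. Not above the level in these lists were Itgam, Ltf, Pax5, Epor, Alas2, Cd3d, Cd3e, Cd3g, Cd4 and Cd8a.

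Stem and progenitor markers were above it in 9 of 11 cases, with sums of 1656 in sample 1 and 3188 in sample 2. Without Lyl1, a transcription factor gene (695 and 2224), the sums were 960.2 and 964, and the median difference was -0.38. Myb went the other way at 490.4 in sample 1 and 232 in sample 2. Kit itself had 25.8 and 19.4 by its 1 probe set, near the floor. That signal is no measure of its level against other genes.

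**Figure D5:**
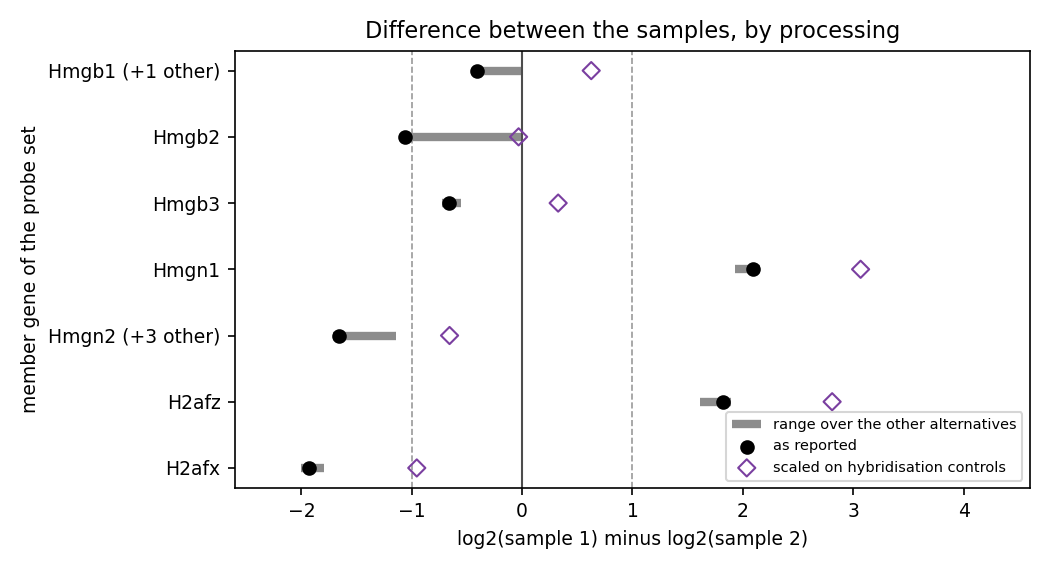
Difference between the samples (log2 of sample 1 minus log2 of sample 2) for each member probe set as reported (black), its range over 7 alternatives of scaling, floor, offset, filter and probe set choice (grey bar), and its value when the arrays are scaled on their hybridisation controls (diamonds). No floor, no filter and averaging of probe sets could not change a member's value. Hmgn1, H2afz, H2afx and Hmgn2 keep their side of 0 throughout, while Hmgb1 and Hmgb3 cross it under the control scaling and Hmgb2 comes to about 0.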

How the data were processed

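RNA of 2 Lin-c-kit+Sca1+ samples went through 2 rounds of amplification before hybridisation, per the labels. The deposited values are signal intensity on a linear scale for 12488 probe sets of a mouse array per sample. Both columns have a mean of 53.9, as a common scale factor would give. The authors' summarising software and its scaling step are not named by any source used here. Their medians were 15.9 and 14.4 and their ranges 0.2 to 10368.5 and 0 to 8800.7. The number of arrays, 2, limits the precision.

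Both arrays were quantile-normalized, signals under 20 were set to 20, and log2 was taken (Python 3.11.15, numpy 2.4.6, pandas 2.3.3). The floor held 57.6% of the values of each sample. The replicate SD across the 6118 probe sets that passed the control level was 0.58 on the log2 scale. Names came from GEO's platform annotation: 10833 probe sets name 1 gene (10817 with a gene ID in the GRCm38.p6 table), 396 several and 1193 none. A gene of a list took its probe set with the highest mean signal among those above the control level, from probe sets that name 1 gene. All members are named, and of each related list, cell type markers aside, the 3 genes with the highest mean signal. Other list genes named were chosen after their values were seen. The members and lists were chosen with earlier results of these data known. No test was made. The difference calculation was tested on simulated data with less noise than these arrays. Known differences were put only into probe sets of high signal. That test does not cover signals as low as those of Hmgb1, Hmgb2 and Hmgn2.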

Additional observations from a re-analysis of the deposited data

How the results depend on the processing

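No paired analysis was possible because there is 1 group. All 7 member probe sets stayed above the control level with the level at its highest or at a fixed 20. The same held in each sample alone, at the median level and in 5 of 5 probe sets that name 1 gene. That was fixed in advance, since all 7 had passed in both samples. Scaling as deposited or on the array median, no floor, an offset of 32, averaging the probe sets of a gene, and no filter moved no member or list difference by more than the replicate SD of 0.58. For the members, no floor, averaging and no filter could not change a value. Each member has 1 probe set, all passed the control level and none was under 20. The scaling as deposited, the offset of 32 and the floor of 50 each left 2 members 2-fold higher in sample 2, without Hmgb2 (-0.95, -0.54 and 0), against 3 as reported. With a floor of 50 the median member difference was 0, since Hmgb1 and Hmgb2 then stood at the floor. Scaling on the hybridisation controls, chosen after seeing the data, moved the median of all probe sets above the control level to 0.78 and so shifted most values towards sample 1. The median member difference was then 0.33 and that of Hmgb3 0.33, with 0 members 2-fold higher in sample 2 and 2 higher in sample 1. List medians under that scaling were 0.92 for HMG-box proteins, -0.069 for other histone variants, 0.97 for chaperones, 1.12 for H2A.Z exchange, 0.74 for H2AX signalling, 1.55 for the SET complex, 0.74 for HMGB1 partners, 1.32 for S phase and mitosis, 0.63 for stem markers, 0.91 for B cell markers, 0.70 for granulocyte and monocyte markers and 0.55 for replication-dependent histones. The low signals of Hmgb1 and Hmgb2 limit what can be said of them. The B cell, T cell and erythroid medians by the reported setting were -0.09, -0.69 and 0.59.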

Other observations

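Proteins that carry an HMG box but are not HMGB proteins include the Sox and Tcf/Lef transcription factors. Of 16 measured, 11 passed the control level, and their median difference was 0. That 0 is the value of Sox18 (16.0 and 19.8), which lay under the floor in both samples. With no floor the median was -0.068. Of the 11, 1 was 2-fold or more higher in sample 1 and 2 in sample 2, against 10.9% and 9.48% of all genes that passed. Sox4, a factor of lymphoid and stem cells, had 61.7 in sample 1 and 249 in sample 2, but its other probe set had 40.6 and 27.9, in the opposite direction. Sox13 had 87.6 in sample 1 and 91.8 in sample 2. Pbrm1, a subunit of a chromatin remodelling complex, had 49.0 and 85.0, with 22.4 and 42.1 and, in the opposite direction, 39.3 and 30.2 by others of its 4 probe sets. The Wnt effector genes Lef1 and Tcf7l1, chosen after their values were seen, lay on different sides, with Lef1 at 82.2 in sample 1 and 40.5 in sample 2 and Tcf7l1 at 38.0 and 90.8.

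The Lin28 and let-7 axis, which controls Hmga2 in fetal mouse stem cells, had 3 of 9 listed genes measured and 1, Hmga2, above the control level. Igf2bp1 had 2.35 in sample 1 and 5.85 in sample 2, and Dicer1 had 18.3 and 6.6.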
